A study of Mus musculus with 24 samples.

Results

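The GABA and glycine synapse genes were taken as all peaks of the deposited count table whose annotated gene was 1 of 26 listed genes. These genes encode the enzymes that make and break down GABA, its vesicular and plasma membrane transporters, a chloride transporter, GABA-A, rho and GABA-B receptor subunits, glycine receptor subunits and gephyrin. The rule found 290 of 147020 peaks, over 25 genes, and 0 peaks analysed here carried the symbol Gabra4. Each peak was named for the closest annotated start, and a peak may act on some other gene. Accessibility was measured by ATAC-seq, in which a transposase cuts and tags open DNA, in nuclei sorted for NeuN, a protein of most neuronal nuclei. The nuclei came from frozen striatum of C57BL/6 mice aged 12 months, with 50000 nuclei per library. There were 4 genotypes of 6 animals each, 3 female and 3 male. WT animals were wild type. Q140 animals were heterozygous for the Q140 knock-in of Htt, the huntingtin gene, an expanded CAG repeat that models Huntington's disease. Msh3KO animals were Msh3-/- and so lacked a DNA mismatch repair gene, and Q140_Msh3KO animals carried the heterozygous Q140 allele on the Msh3-/- background. The sources used here do not give the number of CAG repeats or the way the Msh3 allele was made, and the labels name no batch. Each library goes by its genotype, sex and replicate, such as Q140 F2.

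GABA is the main inhibitory transmitter of the brain. The striatum depends on it more than most regions, because its projection neurons and most of its interneurons release it. GABA-A receptors are chloride channels built from alpha and beta subunits with a gamma or delta subunit, GABA-B receptors are G protein-coupled dimers, and glycine receptors are chloride channels of alpha and beta subunits. Gephyrin is the scaffold that holds glycine receptors and many GABA-A receptors beneath the synaptic membrane.

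Library totals ran from 4372251 to 11736557 counts in peaks, and a tested peak of these genes held a median of 27 counts per library. Q140 F2, labelled female, stood apart with 1.46% of its counts on chromosome X. Males held 1.46% to 1.58% there and the remaining females 1.72% to 1.93%, so its share lay in the male range. Over 5 peaks of 4 Y-linked genes (Uty, Ddx3y, Kdm5d and Eif2s3y) it held 1 count, where the remaining females held 0 to 3 and the males 152 to 303. Q140_Msh3KO M1 stood apart too, with 12.6% of its counts in the 10 peaks highest over all libraries, against at most 4.72% in the rest of that genotype. Counts of called peaks are therefore also given without both libraries, which was decided once the data had been seen. The promoter peak of Msh3 held 54.3 to 82.2 CPM (counts scaled to the size of the library) in WT, 61.8 to 84.1 in Msh3KO, 58.0 to 77.0 in Q140 and 58.2 to 71.9 in Q140_Msh3KO, and an open promoter does not check a knockout. None of the inhibitory synapse peaks lay on the chromosome of Msh3, and the nearest to Htt lay 35.5 Mb away. Averaged over all 24 libraries, the 3 promoter peaks of 3 neuronal markers (Rbfox3, Snap25 and Syt1) held 33.8 CPM each. The 12 promoter peaks of 10 striatal projection neuron markers held 21.5. On the same average, promoter peaks of astrocyte (1), oligodendrocyte (4), microglial (1) and endothelial (2) markers held between 1.17 and 3.49. The 4 of striatal interneuron markers held 3.43 and the 1 of cortical glutamatergic markers 2.16, so some of these values rest on 1 peak. Peaks of the cortical glutamatergic list, of which 5 of 5 genes held peaks, summed to 114 to 130 CPM in WT and 132 to 147 in Q140. The list therefore did not overlap between these groups. It ran from 113 to 132 CPM in Msh3KO and from 111 to 128 in Q140_Msh3KO. Every other marker list overlapped between WT and Q140. Neuronal markers, for example, summed to 844 to 975 and 805 to 1000 CPM, and striatal interneuron markers to 217 to 228 and 210 to 254. Of the 26 peaks of the cortical list 3 rose and 0 fell in Q140 vs WT. Over all tested peaks 4.20% rose and 6.11% fell in that comparison. Of the 267 peaks of the projection neuron list 8 rose and 23 fell, with a median log2 fold change of -0.11. Their sum ran from 2080 to 2640 CPM in WT, 1830 to 2380 in Q140, 1850 to 2470 in Msh3KO and 2000 to 2310 in Q140_Msh3KO, with overlap between the groups. The part of these lists in the results below was not tested.

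Q140 vs WT compares the expanded Htt allele with the normal one where Msh3 is intact. Of 289 tested peaks, 33 changed (11.4%), 11 higher and 22 lower in Q140, at an adjusted p under 0.05 over all tested peaks. Of all 146155 tested peaks, 10.3% changed, 4.20% higher and 6.11% lower, so the share among the inhibitory synapse genes lay close to that of the whole table. Their median log2 fold change was -0.05, against -0.01 over all tested peaks. Changed peaks lay at 15 genes, and 10 genes had peaks but no changed one: Gad1, Slc32a1, Slc12a5, Gabra3, Gabra5, Gabra6, Gabrr1, Gabrr2, Gabrr3 and Gabbr1. The animals of Q140 and WT did not overlap at 17 of the 33 changed peaks. The 33 were chosen by the test on these same animals, which favours separation. Over all 289 peaks the animals did not overlap at 22 (7.61%), against 5.07% of the whole table. Without Q140 F2 and Q140_Msh3KO M1, 28 peaks were called, 26 of them among the 33, against a background of 8.9%. Of the 33, 18 stayed called in all 24 fits that left out 1 library and under all 9 other settings, 7 of the 11 higher and 11 of the 22 lower. In bulk nuclei, fewer cells of a type and a less open site per cell cannot be told apart.

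**Figure D1:**
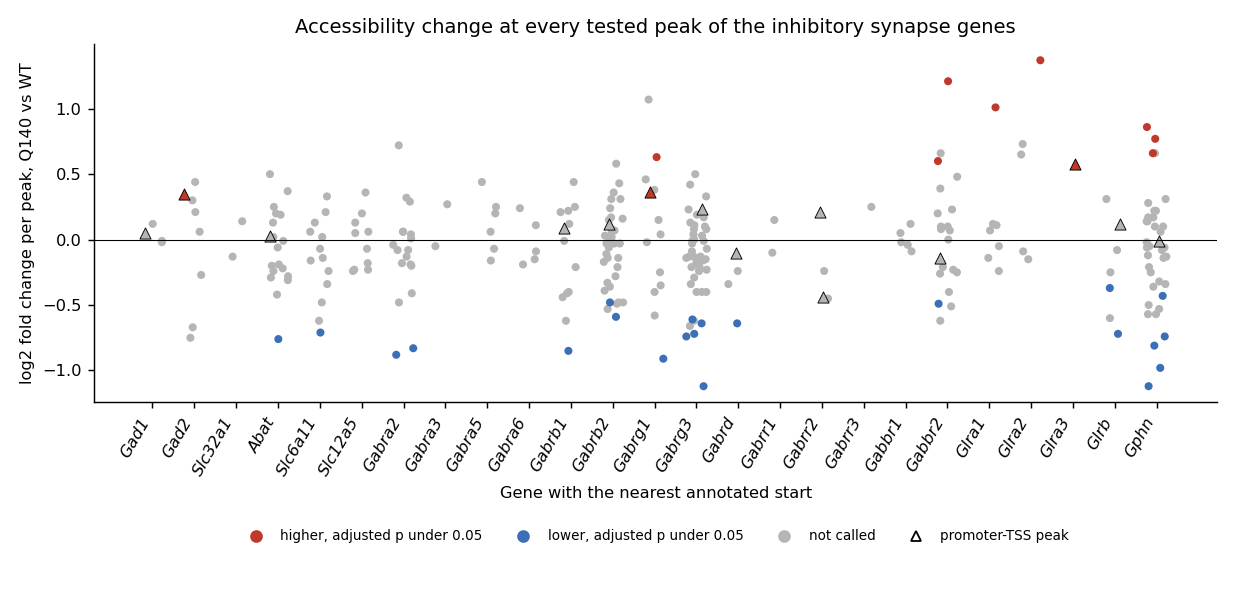
Log2 fold change of each tested peak in Q140 vs WT (vertical axis) by gene (horizontal axis), with red points called higher, blue points called lower, grey points not called and triangles marking annotated promoter peaks. The 3 red triangles stand at Gad2, Gabrg1 and Glra3, and the blue points of Gabrg3, Gabrd, Gabrb1, Gabrb2, Gabra2 and Slc6a11 are all circles away from the promoter.

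Most of the peaks lay away from promoters. The annotation placed 173 in introns, 170 of them in an intron of the named gene, 92 between genes, 14 at promoters of 13 genes, 4 in 5′ UTRs, 4 in exons and 2 at transcript ends. Of the intron peaks 2 rose and 14 fell, against 3.85% higher and 6.57% lower among all intron peaks. Intergenic peaks rose at 6 sites and fell at 8, against 5.68% and 6.91%. At promoters 3 of 14 changed, against 3.33% of all 10167 promoter peaks. All 3 rose, against a background of 1.87% higher and 1.47% lower. Promoter peaks as a class leaned upward in Q140, with a positive log2 fold change at 6614 of 10167 and a median of 0.05, and the 14 had a median of 0.10. The share of counts in promoter peaks was 18.4% to 21.6% in WT and 19.3% to 22.3% in Q140, and its part in the promoter results was not tested.

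The 3 promoters that rose belong to a GABA-making enzyme, a GABA-A receptor subunit and a glycine receptor subunit. Their sequences show how unlike these 3 starts are in base composition. Each is the 250 bases before the RefSeq start (GRCm38.p6), 5′ to 3′ on the gene's strand, lies wholly inside the peak, and has its CpG dinucleotides in capitals. The Gad2 window is chr2:22622077-22622326 on the plus strand, that of Gabrg1 chr5:70842618-70842867 on the minus strand, and that of Glra3 chr8:55940168-55940417 on the plus strand.
Gad2: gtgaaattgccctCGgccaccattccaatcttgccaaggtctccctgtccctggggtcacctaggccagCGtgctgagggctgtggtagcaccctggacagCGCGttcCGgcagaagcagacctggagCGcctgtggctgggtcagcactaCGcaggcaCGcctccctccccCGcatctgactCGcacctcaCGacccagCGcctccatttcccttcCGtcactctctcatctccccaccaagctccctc
Gabrg1: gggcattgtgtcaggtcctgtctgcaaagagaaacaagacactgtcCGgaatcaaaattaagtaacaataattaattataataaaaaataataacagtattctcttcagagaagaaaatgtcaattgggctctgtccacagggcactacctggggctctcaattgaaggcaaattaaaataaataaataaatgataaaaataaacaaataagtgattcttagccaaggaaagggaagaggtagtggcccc
Glra3: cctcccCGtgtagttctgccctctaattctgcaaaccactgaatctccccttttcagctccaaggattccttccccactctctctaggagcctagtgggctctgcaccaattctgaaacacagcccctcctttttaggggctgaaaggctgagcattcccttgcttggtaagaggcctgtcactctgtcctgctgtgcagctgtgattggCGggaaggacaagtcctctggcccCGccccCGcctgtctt
The Gad2 window held 13 CpG at 64.0% G and C, the Gabrg1 window 1 CpG at 35.6%, and the Glra3 window 4 CpG at 56.0%. The median of all 32851 RefSeq windows of this length was 6 CpG at 52.4%. Searched on both strands, none of the 3 held TATAAA, TGACGTCA or CACGTG, and CAGCTG occurred only in that of Glra3. In all windows these motifs occurred in 12.4%, 1.55%, 6.02% and 13.0%, in the order named. RefSeq windows were found for 23 of the 26 symbols, 28 windows in all.

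The promoter peak of Gad2, a glutamate decarboxylase that makes GABA at nerve terminals, lay at chr2:22621843-22622809. It held 16.3 to 22.2 CPM in WT (median 19.6), 20.0 to 27.7 in Q140 (25.4), 17.9 to 22.9 in Msh3KO (21.0) and 19.9 to 26.8 in Q140_Msh3KO (21.6). Q140 animals lay mostly above WT, with Q140 F1 inside the WT range. Means were 19.4 ± 2.19 and 24.6 ± 2.89 CPM (SD, n = 6), and accessibility rose by 0.35 ± 0.11 on the log2 scale (± SE here and below, adjusted p = 0.0318). The call was lost without WT M1, WT M2, Q140 F2, Q140 F3 or Q140 M3 (adjusted p 0.056 to 0.0932), and at 0.0526 when only WT and Q140 were fitted.

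The promoter peak of Gabrg1, which encodes a gamma subunit of GABA-A receptors, lay at chr5:70842097-70843551. WT animals held 12.6 to 18.8 CPM there (median 16.9), Q140 18.9 to 24.4 (21.4), Msh3KO 12.6 to 22.3 (17.3) and Q140_Msh3KO 17.7 to 23.2 (21.6). Every Q140 animal was above every WT animal, although Q140 F1 and WT F1 were nearly level. The rise was 0.36 ± 0.12 (adjusted p = 0.0386), and it was lost without WT M1, WT M2, Q140 F2, Q140 F3, Q140 M2 or Q140_Msh3KO F2 (adjusted p 0.0503 to 0.0995).

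Glra3, an alpha subunit of glycine receptors, had a single peak, at its promoter (chr8:55939914-55940874). It held 3.99 to 6.58 CPM in WT (median 4.54), 5.92 to 8.61 in Q140 (7.83), 4.67 to 7.15 in Msh3KO (6.03) and 5.21 to 10.3 in Q140_Msh3KO (6.90). The Q140 group stood above WT with a small overlap, at WT M2 and WT F1 on 1 side and Q140 F3 on the other. It rose by 0.58 ± 0.15 on the log2 scale (adjusted p = 0.00537), and the peak was called in 24 of 24 fits that left out 1 library, at adjusted p up to 0.0261.

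**Figure D2:**
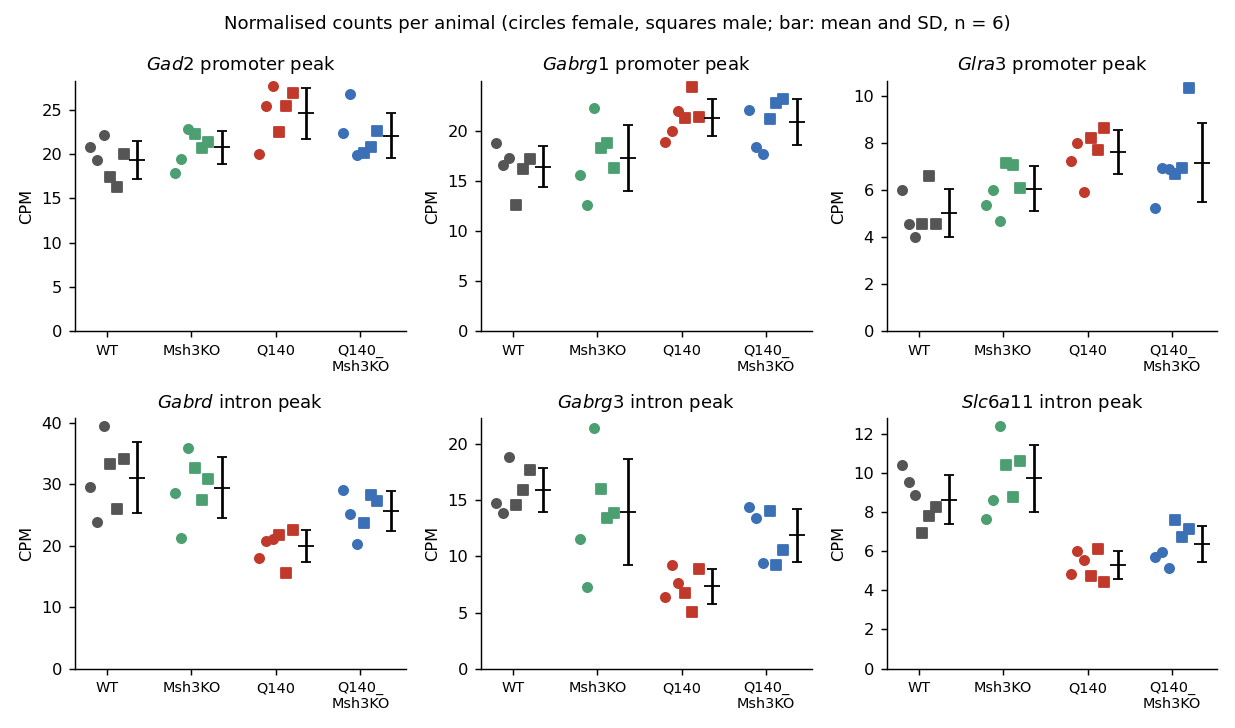
CPM of each animal (vertical axes, from 0) at 6 peaks by genotype, circles for females, squares for males, bars for mean and SD over 6 animals. Q140 animals stand high at the Gad2, Gabrg1 and Glra3 promoters and low at the Gabrd, Gabrg3 and Slc6a11 intron peaks, and Q140_Msh3KO means lie between WT and Q140 at all 6.

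Signal at the start differed among the genes. Among the 20 genes with a peak within 1 kb of the start, the nearest such peak held most per kilobase at Gphn, with 35.9 ± 5.37 CPM in WT (SD, n = 6) and 35.7 ± 3.26 in Q140. Abat, Gabra2, Gabbr1 and Gad1 followed at 26.8 ± 4.07, 26.6 ± 3.58, 25.4 ± 4.17 and 22.8 ± 3.94 CPM per kilobase, and the SDs of neighbours in this order overlapped. Gad2 held 20.0 ± 2.26, Gabbr2 19.4 ± 3.35 and Gabrd 18.7 ± 4.16. Most receptor subunits lay lower, from 11.9 ± 1.46 at Gabra5 down to 5.95 ± 0.968 at Gabrb1, 5.23 ± 1.05 at Glra3 and 4.71 ± 1.93 at Gabrr2. At Slc32a1, Gabra6, Gabrr3, Gabrr1 and Glra2 the nearest peak was farther, and for Slc32a1 it lay 3010 bases downstream at 32.6 ± 2.62 CPM per kilobase. The other 11 promoter peaks did not pass the test in Q140 vs WT, and the nearest to it was 1 of the 2 at Gabrr2, at -0.44 ± 0.15 (adjusted p = 0.0534).

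Genes of GABA synthesis, vesicle loading, breakdown, uptake and chloride balance held 56 tested peaks, with a median of -0.02. Of these 1 rose, 2 fell and 53 did not pass (5.36% changed, against 10.3% of all tested peaks). The riser was the Gad2 promoter. Gad1, the other glutamate decarboxylase gene, held 15.6 ± 2.53 CPM at its promoter in WT and 16.1 ± 2.54 in Q140 (0.05 ± 0.14), and 0 of its 4 peaks changed. Slc32a1, the vesicular transporter that loads GABA and glycine, gave -0.13 ± 0.14 at its intron peak and 0.14 ± 0.13 at its transcript end. The 10 peaks of Slc12a5, the neuronal potassium-chloride cotransporter that keeps GABA inhibitory, ran from -0.24 to 0.36 with 0 called.

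A peak in intron 4 of Slc6a11, a plasma membrane GABA transporter known mainly from astrocytes, lay at chr6:114144510-114145335. It held 6.91 to 10.4 CPM in WT (median 8.58), 4.45 to 6.14 in Q140 (5.21), 7.66 to 12.4 in Msh3KO (9.59) and 5.14 to 7.60 in Q140_Msh3KO (6.36). All Q140 animals were below all WT animals. The peak fell by 0.71 ± 0.14 on the log2 scale (adjusted p = 0.000465) and was called in 24 of 24 fits that left out 1 library. Peaks of 6 astrocyte markers, all 6 with peaks, summed to 201 to 223 CPM in WT and 207 to 245 in Q140. Of these 46 peaks 3 were higher and 3 lower, against 4.20% and 6.11% of all tested peaks. Their part in the Slc6a11 result was not tested. In intron 1 of Abat, which encodes GABA transaminase, the enzyme that breaks GABA down, a peak at chr16:8563534-8564011 held 5.89 to 10.8 CPM in WT (median 7.30) and 2.15 to 6.36 in Q140 (4.59). The groups overlapped slightly there, and the log2 fold change was -0.76 ± 0.17 (adjusted p = 0.00191).

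Alpha subunits of GABA-A receptors held 31 tested peaks, with a median of -0.05. Of these 0 rose and 2 fell (6.45%, against 10.3% of all tested peaks). Both fallers lay upstream of Gabra2, an alpha subunit gene with 18 peaks. At 106 kb from its start (chr5:71202083-71202433) WT held 1.97 to 7.33 CPM (median 2.59) and Q140 1.18 to 2.24 (2.04). WT F2 alone reached 7.33, and without it the log2 fold change went from -0.83 ± 0.25 (adjusted p = 0.0268) to -0.47 (0.257). Leaving out WT F1, Q140 F3, Q140 M2 or Q140 M3 also ended this call (adjusted p 0.0524 to 0.0782), as did limma-voom (0.0516) and leaving out Q140 F2 and Q140_Msh3KO M1 together (0.0534). At 132 kb (chr5:71227765-71227980) the change was -0.88 ± 0.28 (adjusted p = 0.0341), lost without WT F1, WT F2, Q140 F1, Q140 F3, Q140 M2 or Q140 M3 (0.0567 to 0.153). Both peaks held few counts. The 2 peaks of Gabra3, 6 of Gabra5 and 5 of Gabra6 ran from -0.19 to 0.44 with 0 called.

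Beta subunits held 47 peaks, with a median of -0.03. Of these 0 rose and 3 fell (6.38%, against 10.3% of all tested peaks). The clearest was in intron 5 of Gabrb1 (chr5:71921308-71921803), with 2.93 to 5.76 CPM in WT (median 5.13) and 2.23 to 3.16 in Q140 (2.69). Only WT F2 fell within the Q140 range. Its log2 fold change was -0.85 ± 0.17 (adjusted p = 0.000615), and the promoter of Gabrb1 gave 0.09 ± 0.17. Gabrb2 fell at an intergenic peak 31.7 kb upstream (-0.59 ± 0.16, adjusted p = 0.0125) and at a peak in intron 9 (-0.48 ± 0.15, 0.0287). The first was lost without WT F3 (0.0577), the second without any of WT F1, WT F2, WT F3, Q140 F1, Q140 F3 and Q140 M2 (0.0698 to 0.116). The Gabrb2 promoter, at 27.4 CPM in WT and 29.7 in Q140, gave 0.12 ± 0.11.

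Gamma and delta subunit genes held 64 peaks, with a median of -0.13. Of these 2 rose and 7 fell (14.1%, against 10.3% of all tested peaks). Gabrg3, a gamma subunit gene, accounted for 5 of the falls among its 47 peaks. That is 10.6% lower and 0% higher, against 6.11% and 4.20% of all tested peaks and 10.3% in either direction. The 5 falls lay within its intron 3, spread from 120 to 394 kb downstream of the start. The largest, at chr7:56992870-56993666, held 13.9 to 18.9 CPM in WT (median 15.4), 5.08 to 9.26 in Q140 (7.21), 7.31 to 21.5 in Msh3KO (13.7) and 9.28 to 14.4 in Q140_Msh3KO (12.0). Q140 lay wholly below WT, and Q140_Msh3KO animals began just above the highest Q140 animal and reached into the WT range. The log2 fold change was -1.12 ± 0.17 (adjusted p = 2.08e-05), the smallest adjusted p among the 33. The other 4 gave -0.74 ± 0.16, -0.72 ± 0.19, -0.64 ± 0.15 and -0.61 ± 0.16. Of these, the peak at 57082162 was lost without WT F3 (adjusted p = 0.0745) and that at 57077693 without WT M3 (0.0541). The promoter peak of Gabrg3 held 12.0 to 16.5 CPM in WT and 14.8 to 17.4 in Q140, with a log2 fold change of 0.23 ± 0.12 (adjusted p = 0.275). Peaks of Gabrg3 that did not pass stood beside those that fell.

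**Figure D3:**
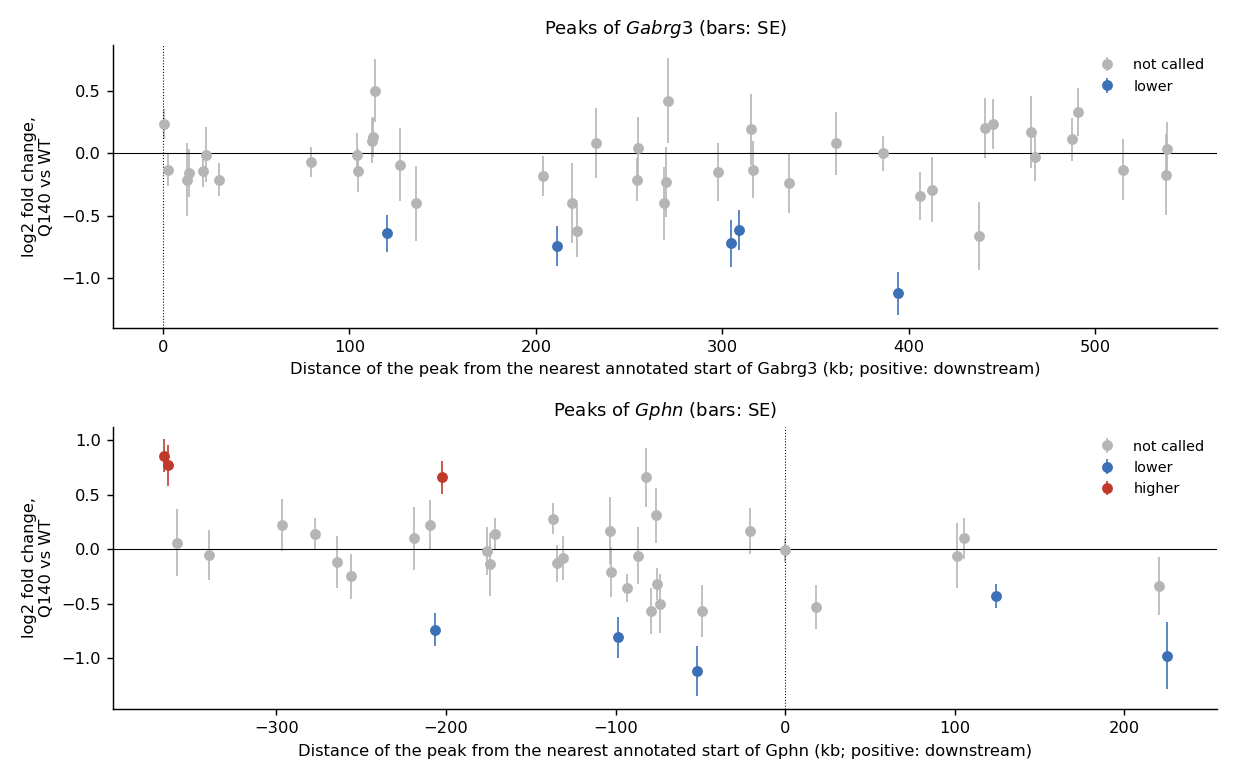
Log2 fold change in Q140 vs WT with its SE (vertical axes) against the distance of each peak from the nearest annotated start in kb (horizontal axes), for Gabrg3 above and Gphn below. The 5 blue Gabrg3 peaks lie 120 to 394 kb downstream with grey peaks near 0 among them, and the 3 red Gphn peaks lie 202 to 366 kb upstream of that gene's start.

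Gabrd encodes the delta subunit, found in receptors outside synapses that carry tonic inhibition. Its intron 1 peak (chr4:155395256-155395998) was the most open of its 4 peaks, with 23.9 to 39.5 CPM in WT (median 31.4), 15.6 to 22.5 in Q140 (21.0), 21.3 to 35.8 in Msh3KO (29.6) and 20.2 to 29.0 in Q140_Msh3KO (26.2). All Q140 animals were below all WT animals. The log2 fold change was -0.64 ± 0.13 (adjusted p = 0.000424), called in 24 of 24 fits that left out 1 library. That peak lies 2.44 kb downstream of the start, where the promoter peak gave -0.10 ± 0.13, and the peaks at 15.1 kb downstream and 4.95 kb upstream gave -0.34 ± 0.13 (adjusted p = 0.095) and -0.24 ± 0.14. Gabrg1, besides its promoter, had changed peaks of opposite sign far downstream. At 440 kb (chr5:70402265-70402866) accessibility fell from 8.94 ± 1.29 to 4.73 ± 0.699 CPM (-0.91 ± 0.18, adjusted p = 0.000586), and the groups did not overlap. At 483 kb (chr5:70359213-70359747) it rose from 5.53 ± 1.53 to 8.66 ± 1.39 CPM (0.63 ± 0.17, adjusted p = 0.00948), where the groups overlapped.

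Several subunit genes lie side by side, and a peak between them is named only for the nearer start. The chromosome 5 group (Gabrg1, Gabra2 and Gabrb1) held 44 peaks over 1.67 Mb, of which 2 rose and 4 fell. The chromosome 7 group (Gabra5 and Gabrg3) held 53 peaks over 0.683 Mb, with 0 higher and 5 lower and a median of -0.13. The chromosome 11 group (Gabrb2 and Gabra6) held 39 peaks over 0.526 Mb, with 0 higher and 2 lower. For comparison, 4.20% of all tested peaks were higher and 6.11% lower.

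The rho subunits, which form GABA-gated channels best known from retina, held 7 peaks and none passed the test. GABA-B receptor genes held 26 peaks, of which 2 rose and 1 fell (11.5%, against 10.3% of all tested peaks). All of these lay at Gabbr2, which encodes the subunit that couples to G proteins. The peak in its intron 2 (chr4:46865526-46865792) held 0.566 to 1.91 CPM in WT (median 1.05), 2.01 to 3.05 in Q140 (2.60), 0.722 to 1.71 in Msh3KO (1.36) and 1.63 to 2.61 in Q140_Msh3KO (2.04). Every Q140 animal exceeded every WT animal at this small peak, and the log2 fold change was 1.21 ± 0.25 (adjusted p = 0.000909). A peak 3.54 kb upstream gave 0.60 ± 0.20 (0.0417) and 1 in intron 3 gave -0.49 ± 0.16 (0.0325). Each of these lost its call without any of 8 single libraries (adjusted p up to 0.159 and 0.101), WT F1, WT F3, WT M1, Q140 F2 and Q140 M3 for both. The others were WT M2, Q140 F3 and Q140_Msh3KO F2 for the first and WT M3, Q140 F1 and Q140 M2 for the second. The upstream peak was called under 5 of 9 other settings, and was lost with DESeq2 (0.0597), with no filter on low counts (0.0512), when only WT and Q140 were fitted (0.0512) and without Q140 F2 and Q140_Msh3KO M1 together (0.063). The intron 3 peak was lost under the last of these (0.074). Gabbr1, which encodes the subunit that binds GABA, gave -0.09 to 0.12 over 5 peaks with 0 called.

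Glycine receptor genes held 20 tested peaks, of which 3 rose and 2 fell, with a median of 0.01. Over all tested peaks 4.20% rose and 6.11% fell. The 3 risers belonged to alpha subunits and both fallers to the beta subunit Glrb, but peaks of either sign lay at most of these genes. Log2 fold changes were negative at 3 of 7 peaks of Glra1 and 2 of 5 of Glra2, and positive at 2 of 7 of Glrb. In intron 8 of Glra2 (chrX:165188525-165188819) WT held 0.197 to 2.17 CPM (median 0.996), Q140 2.30 to 3.68 (2.96), Msh3KO 0.722 to 1.82 (1.27) and Q140_Msh3KO 1.22 to 1.91 (1.71). No WT, Msh3KO or Q140_Msh3KO animal reached the lowest Q140 animal, and WT M1 held 1 count there. The log2 fold change was 1.37 ± 0.27 (adjusted p = 0.000356), the largest among the 33. An intergenic peak 110 kb upstream of Glra1 rose by 1.01 ± 0.33 (adjusted p = 0.0391), from 0.856 ± 0.213 to 1.77 ± 0.505 CPM. That call was lost without any of WT F2, WT F3, WT M1, WT M2, WT M3, Q140 F2, Q140 F3, Q140 M3 and Q140_Msh3KO F2 (0.0519 to 0.118), with no filter on low counts (0.0511) and without Q140 F2 and Q140_Msh3KO M1 together (0.0589).

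At Glrb, which joins receptors to gephyrin, an intron 4 peak (chr3:80866718-80867904) held 14.4 to 21.0 CPM in WT (median 18.6) and 11.6 to 16.3 in Q140 (14.1). The groups overlapped through WT M3, and the log2 fold change was -0.37 ± 0.11 (adjusted p = 0.0252). A peak 10.1 kb upstream of Glrb gave -0.72 ± 0.22 (0.0214), and the promoter gave 0.12 ± 0.11. The first was lost without WT F2, WT F3, WT M1, Q140 M1, Q140 M2 or Q140 M3 (0.0545 to 0.102), the second without WT F1, WT F3, Q140 F2 or Q140 M3 (0.053 to 0.114), and both without Q140 F2 and Q140_Msh3KO M1 together (0.0581 and 0.0771).

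Gphn, the gephyrin gene, had 38 peaks, of which 3 rose and 5 fell (21.1%, against 10.3% of all tested peaks). The median at Gphn was -0.06. Its promoter was level between the genotypes, at 70.1 CPM in WT and 69.8 in Q140 (-0.01 ± 0.11). The peak 366 kb upstream (chr12:77859689-77860928) held 7.59 to 11.1 CPM in WT (median 8.98), 14.1 to 20.5 in Q140 (16.1), 6.42 to 13.4 in Msh3KO (10.2) and 8.96 to 19.1 in Q140_Msh3KO (13.3). Q140 lay wholly above both genotypes with a normal Htt. The peak rose by 0.86 ± 0.15 on the log2 scale (adjusted p = 9.53e-05). The other risers lay 364 and 202 kb upstream, at 0.77 ± 0.19 and 0.66 ± 0.15, and did not overlap between WT and Q140 either.

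The largest fall at Gphn lay 52.1 kb upstream (chr12:78174307-78174763), with 3.15 to 5.47 CPM in WT (median 4.04) and 0.871 to 2.78 in Q140 (1.96). The groups were apart, and the log2 fold change was -1.12 ± 0.23 (adjusted p = 0.000511). Peaks at 206 and 98.4 kb upstream gave -0.74 ± 0.15 and -0.81 ± 0.19. The riser at 202 kb and the faller at 206 kb lay next to each other, at 78023851 and 78020101 on chromosome 12. In intron 2, a peak with a CPM close to that of the promoter (chr12:78350789-78351263) held 69.4 ± 10.1 CPM in WT and 51.6 ± 6.92 in Q140 (-0.43 ± 0.11, adjusted p = 0.00729), a call lost without WT M1 (0.0623). The fifth, in intron 4, gave -0.98 ± 0.31 (0.0358) and was lost without WT F1, WT F2, WT M1, WT M2, Q140 F1, Q140 F3 or Q140 M3 (0.0513 to 0.184), and without Q140 F2 and Q140_Msh3KO M1 together (0.0552).

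Counts were then summed over all peaks of a gene, which asks whether a gene's peaks moved on balance. In Q140 vs WT 3 of 25 genes changed, against 12.9% of all 20851 genes tested this way, so the share lay close to the background. The count was 3 to 6 when 1 library was left out, with 6 without Q140 F1, and these 3 kept their calls in 24 of 24 such fits. Gabrd fell by 0.37 ± 0.08 on the log2 scale (adjusted p = 0.00269), from 74.0 ± 9.41 to 57.4 ± 5.73 CPM. Gabrg3 fell by 0.18 ± 0.04 (adjusted p = 0.00438), from 238 ± 5.23 to 210 ± 5.86 CPM, and Q140 animals at 199 to 216 CPM stood below WT animals at 230 to 244. Glra3, with 1 peak, rose as above. Glrb gave -0.18 ± 0.06 (adjusted p = 0.0515), and passed at -0.32 (0.00424) when promoter peaks were left out. Gphn and Gabbr2, whose peaks moved in both directions, gave -0.09 ± 0.04 and 0.00 ± 0.06. In Q140_Msh3KO vs Q140 0 of 25 sums passed by edgeR, against 0.643% of all genes, with 4 at an unadjusted p under 0.05. In Q140_Msh3KO vs Msh3KO 0 of 25 passed, against 0.0576%, with 1 at an unadjusted p under 0.05.

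**Figure D4:**
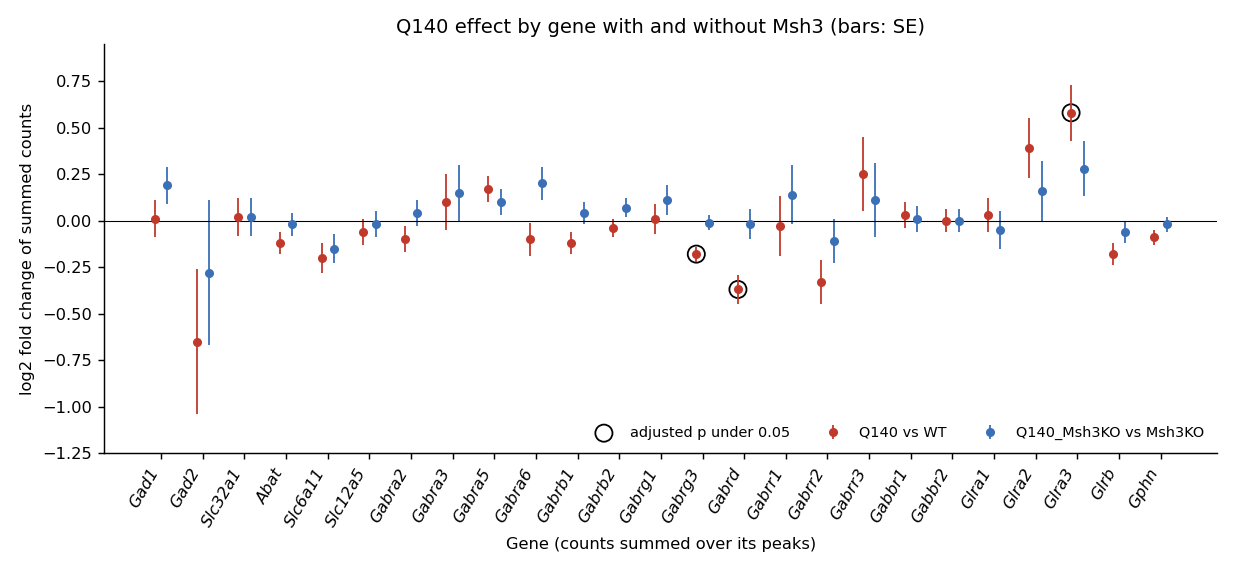
Log2 fold change of counts summed over each gene's peaks, with its SE (vertical axis), by gene (horizontal axis), in red for Q140 vs WT and in blue for Q140_Msh3KO vs Msh3KO, with rings around calls. Rings surround the red points of Gabrg3, Gabrd and Glra3 and no blue point, and the SE at Gad2 is the longest.

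The sum of Gad2 was ruled by 2 adjoining intergenic peaks about 33 and 34.4 kb upstream (chr2:22588502-22590221 and chr2:22587404-22588432), which held 95.5% of the gene's counts. Together they held 836 to 2960 CPM in WT (median 992), 612 to 2830 in Msh3KO (948), 435 to 1110 in Q140 (792) and 592 to 1510 in Q140_Msh3KO (917). The highest animals were WT F1 and Msh3KO F1, and the groups overlapped. The other 6 Gad2 peaks together held 38.7 to 53.6 CPM in WT and 44.2 to 57.0 in Q140. The Gad2 sum gave -0.65 ± 0.39 (adjusted p = 0.321) with the pair and 0.22 (adjusted p = 0.04) without it, so its direction depended on these 2 peaks.

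**Figure D5:**
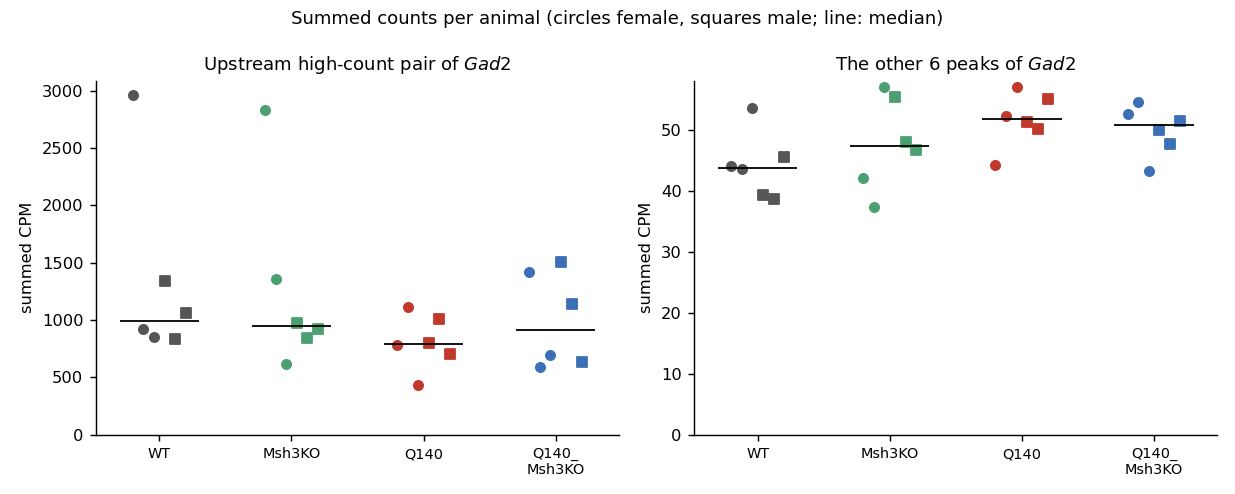
Summed CPM of each animal (vertical axes, from 0) by genotype for the 2 high-count peaks upstream of Gad2 (left) and for the other 6 Gad2 peaks (right), circles for females, squares for males, lines for medians. WT F1 and Msh3KO F1 stand at 2960 and 2830 CPM on the left, and on the right Q140 animals lie at 44.2 to 57.0 CPM against 38.7 to 53.6 in WT.

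Msh3KO vs WT compares animals without and with Msh3 where Htt is normal. By edgeR 0 of the 289 peaks changed, against 0.0130% of all tested peaks, and 5 had an unadjusted p under 0.05. DESeq2 and limma-voom also called 0. The median log2 fold change was 0.00.

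Q140_Msh3KO vs Msh3KO measures the Q140 allele in animals without Msh3, and it shares no library with Q140 vs WT. Here 1 of 289 peaks changed, lower, against 0.116% of all tested peaks in either direction and 0.0924% lower, and 21 had an unadjusted p under 0.05. It was the Slc6a11 intron 4 peak, which fell from 9.74 ± 1.72 to 6.39 ± 0.927 CPM (-0.63 ± 0.14, adjusted p = 0.0493), beside -0.71 ± 0.14 in Q140 vs WT. All Q140_Msh3KO animals were below all Msh3KO animals. This call sat at the threshold: it was lost in 18 of 24 fits that left out 1 library (adjusted p up to 0.182), the exceptions being without WT M2, Msh3KO F1, Msh3KO F2, Q140 F1, Q140 F2 or Q140_Msh3KO M1. Of the 11 peaks higher in Q140 vs WT, 11 had a positive log2 fold change here, with a median of 0.26 against 0.66. Of the 22 lower peaks 20 were negative, 1 was positive and 1 was at 0.00, with a median of -0.24 against -0.73. These peaks were chosen by passing Q140 vs WT, which inflates their medians in that comparison. The gap between the medians therefore does not measure how far the Q140 effect depends on Msh3. Over all peaks called in Q140 vs WT, 88.1% of the higher ones were positive here (median 0.25) and 92.3% of the lower ones negative (median -0.26), so the shares here were near those of the whole table. The exception was the Gabra2 peak at 106 kb, at 0.23 ± 0.27.

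Q140_Msh3KO vs Q140 measures the loss of Msh3 in the presence of the Q140 allele, and shares the Q140 libraries with Q140 vs WT. Here 1 of 289 peaks changed, higher, against 0.529% of all tested peaks in either direction, 0.310% higher and 0.219% lower, and 29 had an unadjusted p under 0.05. It lay in intron 5 of Gabrg3 (chr7:56949330-56949584), with 0.522 to 1.55 CPM in Q140 (median 1.27), 2.02 to 2.95 in Q140_Msh3KO (2.60), 0.879 to 2.51 in WT (1.81) and 1.33 to 2.85 in Msh3KO (1.75). Q140_Msh3KO animals were all above Q140 animals and overlapped with WT. The log2 fold change was 1.14 ± 0.26 (adjusted p = 0.0234), lost without Q140 F3, Q140 M1, Q140 M2, Q140_Msh3KO F1, Q140_Msh3KO F2 or Q140_Msh3KO M1 (0.0502 to 0.1) and without Q140 F2 and Q140_Msh3KO M1 together (0.0837). At the largest Gabrg3 peak of Q140 vs WT, that at 56992870, Q140_Msh3KO vs Q140 gave 0.68 ± 0.18 (adjusted p = 0.066). DESeq2 called that peak (0.0346) and gave no adjusted p for the intron 5 peak.

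Q140_Msh3KO vs WT, which shares the WT libraries with Q140 vs WT, gave 0 called peaks of 289 by edgeR, DESeq2 and limma-voom, against 0.525% of all tested peaks, with 28 at an unadjusted p under 0.05. Without Q140 F2 and Q140_Msh3KO M1 it called 1, an intergenic peak named for Gabrg1 at chr5:70748976-70749203 (1.46, adjusted p = 0.0437), named after its value was seen. For the 11 peaks higher in Q140 vs WT the median log2 fold change was 0.66 there and 0.50 in Q140_Msh3KO vs WT. For the 22 lower peaks it was -0.73 and -0.32. The peaks were chosen by Q140 vs WT, so the medians of that comparison are inflated by the choice. The interaction, the Q140 effect with Msh3 minus that without it, passed the test at 0 of 289 peaks by edgeR, DESeq2 and limma-voom, against 0.0226% of all tested peaks, with 23 at an unadjusted p under 0.05. Without Msh3KO F3 it passed at 1 peak, the Gabrg3 peak at 56992870 (-1.01, adjusted p = 0.0411). With all libraries the difference between the Q140 effects with and without Msh3 was thus not shown at a single peak of these genes.

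The Q140 effect was also fitted in each sex. In females 10 of 289 peaks changed, 2 higher and 8 lower, against 3.03% of all tested peaks, and in males 9, 4 higher and 5 lower, against 2.92%. The difference between the sexes passed the test at 0 of 289 peaks by edgeR, against 0% of all tested peaks, with 6 at an unadjusted p under 0.05. At the Gabrd intron peak the log2 fold change was -0.64 in females and -0.64 in males, at the largest Gabrg3 peak -1.03 and -1.21, and at the Glra3 promoter 0.53 and 0.64. The Gad2 and Gabrg1 promoters gave 0.23 and 0.21 in females and 0.48 and 0.53 in males. Q140 F2, with a male-like share of counts on X, is 1 of the 3 Q140 females. Without it, 3 peaks changed in females, 0 higher and 3 lower, against 2199 of all 146389 peaks tested in that fit, and 12 in males, 3 higher and 9 lower, against 4554 (3.11%). The sex difference then still passed at 0 of 289 by edgeR, with 7 at an unadjusted p under 0.05. The female log2 fold change became -0.68 at the Gabrd intron peak, -1.18 at the largest Gabrg3 peak, 0.42 at the Glra3 promoter, 0.19 at the Gad2 promoter and 0.21 at the Gabrg1 promoter.

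A second list of 29 genes, with other transporters, receptor subunits, adhesion and scaffold proteins and GABA-B effectors of inhibitory synapses, was described in the same way. It held 282 tested peaks over 27 genes. In Q140 vs WT 12 rose and 17 fell (10.3%), with a median of -0.02, a share equal to that of all tested peaks when rounded. Msh3KO vs WT called 0 by edgeR, with 8 at an unadjusted p under 0.05. Q140_Msh3KO vs Q140 called 1 higher (0.355%, against 0.529% of all tested peaks) and Q140_Msh3KO vs Msh3KO 1 lower (0.355%, against 0.116%). Q140_Msh3KO vs WT called 1 of each (0.709%, against 0.525%).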

How the data were processed

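Per the file headers, the authors deposited 1 table of raw read counts for 147020 peaks in 24 libraries. The submitters' processing notes list featureCounts, MACS2, Picard, SAMtools and BWA, with no order, and the build GRCm38. Settings, read filters and any cut-site shift were not given in the sources used here. A single peak set served all libraries, so a site open in 1 genotype can be diluted.

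The 26 genes, their role groups and the second list were chosen with earlier results of these data known. Named peaks were each gene's promoter peak nearest the start, its called peaks with the largest rise and fall in Q140 vs WT, and every called peak of the other contrasts, and further called peaks are given by value.

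Counts were fitted with edgeR 4.0.16 in R 4.3.3 (quasi-likelihood, robust, TMM scaling, filterByExpr with a minimum count of 10) on all 24 libraries, with terms for genotype and sex. Of the peaks, 146155 were tested and 1 Glra2 peak was filtered out. P-values were adjusted by Benjamini-Hochberg over all tested peaks at 0.05. SE is the log2 fold change divided by the square root of the F statistic. CPM uses TMM library sizes. Sexes were compared in a genotype by sex model. DESeq2 1.42.0 and limma 3.58.1 (voom) served as alternatives. Motifs were counted with Python 3.11.15. Over 60 pairs of libraries of 1 genotype, the chi-square per peak was 1.33 to 8.84, beyond sampling noise, and 0 pairs were identical. On simulated counts for Q140 vs WT over 145935 peaks, the fit recovered 69.4% of 98 log2 changes of 1 and 6.06% of 99 changes of 0.5. In the real comparison 10.3% of peaks changed, which makes the adjusted threshold less strict than in the simulation. The simulated shares therefore do not give the share of changes missed in Q140 vs WT. Each library is taken as 1 animal. The labels do not say so in words, and if they are not, p-values measure only the spread between libraries.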

Additional observations from a re-analysis of the deposited data

Results flagged for a closer look

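Among 124 groups of 6 animals, over 30 named peaks and the high-count pair upstream of Gad2, 8 held an animal far from the other 5, with a gap to the nearest of them that took up more of the group's range than Dixon's critical value at 95%. Chance marks about 1 in 20 groups. At the Gabrb2 promoter Q140_Msh3KO M1 held 21.4 CPM, against 31.6 to 32.9 in the other animals of its genotype. The same library was lowest at the Gabrg3 promoter, with 10.4 CPM against 15.3 to 17.3, and it is the library in which the 10 highest peaks took 12.6% of counts. At the Glra3 promoter Q140_Msh3KO M3 held 10.3 CPM, against 5.21 to 6.93. In the Abat intron 1 peak WT F2 held 10.8 CPM, against 5.89 to 7.54, and in the Gabra2 peak 132 kb upstream WT F1 held 2.58 CPM, against 1.36 to 1.78. At the small Gabrr2 promoter peak Msh3KO M3 held 2.26 CPM, against 0.886 to 1.30.

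The pair of peaks upstream of Gad2 held 2960 CPM in WT F1, against 836 to 1340 in the other WT animals, and 2830 in Msh3KO F1, against 612 to 1360. These peaks ranked 37 and 15 of the whole table by total count. Over all 24 libraries their log2 CPM followed the log2 CPM of the 10 highest peaks of the table (Pearson r = 0.744, permutation p = 0.00012; Spearman rho = 0.872, permutation p = 1e-05, the smallest that 100000 resamples can give). This was the only such relation computed. Without Q140_Msh3KO M1 and Q140 F3, the libraries farthest from the median of the 10 peaks, r was 0.898. Within genotypes, with 6 animals each, r ran from 0.764 to 0.964 and rho from 0.6 to 0.943. In WT r was 0.964 and rho 0.6, and WT F1 stood far above the other WT animals. The cause was not tested.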

How the results depend on the processing

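The count of called peaks in Q140 vs WT was 33 and ran from 28 to 38 over 9 settings and from 25 to 37 when 1 library was left out. Under no setting did a called peak change sign. Limits: weak peaks held few counts, modest changes may be missed, and 15 of the 33 lost their call under some setting or without some library. Without Q140 F2 and Q140_Msh3KO M1 together, 7 of the 33 lost it, at adjusted p from 0.0534 to 0.0771. Summed counts gave 3 genes, 3 to 6 without 1 library. The Gad2 sum turned from -0.65 to 0.22 without its high-count pair, and Glrb passed at -0.18 (adjusted p = 0.0431) with a replicate block. Q140_Msh3KO vs Q140 called 1 peak, 2 with a replicate block, 4 with only the genotypes compared and 0 without Q140 F2 and Q140_Msh3KO M1, and 0 to 3 without 1 library. Those added were the Gabrg3 peak at 56992870 and, with only the genotypes compared, the Gphn riser at 78023851 (-0.49) and the Glra2 peak (-0.87), and without Q140_Msh3KO F3 the Gabrg1 peak at 70402265 (0.72). Q140_Msh3KO vs Msh3KO called 1 peak and 0 with relative log expression size factors, with limma-voom, with a replicate block or with only the genotypes compared (adjusted p 0.0536, 0.0596, 0.0584 and 0.138), and 0 to 1 without 1 library. Q140_Msh3KO vs WT called 0, 1 without Q140 F2 and Q140_Msh3KO M1, and 0 to 1 without 1 library. The interaction called 0, also without Q140 F2 and Q140_Msh3KO M1 together, and 0 to 1 without 1 library. Msh3KO vs WT and the sex difference called 0 throughout. In females 10 peaks were called, and 3 without Q140 F2. The cause of these losses was not tested. Over 36 same-numbered pairs of libraries the correlation of deviations ran from -0.365 to 0.458 (median -0.0175, 6 over 0.1). Other pairs of the same sex had a median of -0.067. Among same-sex libraries of other genotypes, 13 of 24 libraries correlated best with their own number. Every other genotype offers a candidate of that number, so such matches also arise without pairing. These values do not settle whether replicate numbers pair the animals. With the replicate block Q140 vs WT called 35 peaks, the 33 and 2 more.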
